A study of Mus musculus with 4 samples.

Results

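The genes described here are 35 genes of fibroblasts, pericytes and smooth muscle other than the collagens, from growth factor receptors and secreted matrix proteins to the actin-based contractile apparatus. They were taken by name from a list and were found on the array through probe sets annotated with that single gene symbol. Where a gene had several such probe sets, the brightest by its average over the 4 arrays stood for it. All 35 were on the array, out of 18193 genes with a single symbol, and 30 of the 35 were bright enough to be tested. Of the list, 19 were grouped as fibroblast genes, 11 as contractile genes, 3 as pericyte genes and 2 as ligands of the platelet-derived growth factor (PDGF) receptors.

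The samples were 4 mouse mammary tumours, each measured on 1 Affymetrix whole-genome expression array. In 2 tumours, called EN-TAM67 here (Eph_EN_DN in the labels), nude mice had been transplanted with Eph4 mammary epithelial cells that carried the fusion oncogene ETV6-NTRK3 and also expressed TAM67, a dominant negative c-Jun. In the other 2 tumours, called EN (Eph_EN), the Eph4 cells carried ETV6-NTRK3 without TAM67. Both groups therefore shared the fusion, the Eph4 line and the nude host, which lacks a thymus and most mature T cells but keeps its fibroblasts, vessels and myeloid cells. The comparison addressed how far tumour formation by the fusion works through the AP-1 complex, of which c-Jun is a subunit. Transplanted cells and host are both mouse, so the arrays cannot assign a transcript to tumour cells or to host stroma, and fewer cells of a type cannot be told apart from less RNA per cell. The labels give only a tumour number for each group and do not say whether the tumours grew from separate cultures. The p-values below therefore rest only on how these 4 samples vary, and part of that variation may be technical. The p-values and SE use a variance drawn toward that of genes of similar intensity, so they do not measure a gene's own spread alone.

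Fibroblasts make and organise the collagenous stroma of a tumour, and in mammary carcinoma they are among the most abundant host cells. Pericytes wrap the small vessels and are recruited by PDGF-B from endothelial cells acting on PDGF receptor beta. Smooth muscle cells, activated fibroblasts and mammary myoepithelial cells share much of one contractile programme, in which actin, myosin, tropomyosin, calponin and caldesmon genes are driven by serum response factor bound to CArG boxes in their promoters.

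Serpinf1, the secreted glycoprotein also called pigment epithelium-derived factor, was the only one of the 35 genes to pass the test. It fell in EN-TAM67 tumours, to 400.5 ± 12.1 intensity units, against 851 ± 107 units in EN tumours (SD, n = 2 each), a log2 difference of -1.05 ± 0.21 (SE, limma adjusted p = 0.0311). Below it, Tpm1, which encodes a tropomyosin, and Serpinh1, the collagen chaperone, differed by -0.90 and -0.87 and missed the threshold (limma adjusted p = 0.0617 and 0.0859). Differences were taken as the EN-TAM67 mean less the EN mean of log2(intensity + 16), a scale that understates the change of dim genes, and the threshold was an adjusted p under 0.05 over 13331 genes. Of the 30 tested genes 1 fell and 0 rose, where 0.420% of all genes tested fell and 0.135% rose, 0.555% in either direction. At an unadjusted p under 0.05, 10 of the 30 were lower and 0 were higher, against 4.94% lower and 4.86% higher over all genes. The genes were chosen with earlier results of these data known. Counts and medians of the list, here and below, are therefore description and no test of it.

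Fibroblast and contractile genes both had negative medians, and the difference between the 2 medians was not tested. The median difference was -0.32 for the 17 fibroblast genes tested and -0.32 for the 8 contractile genes tested, against 0.019 for all genes. Counting the untested dim genes too, the medians were -0.31 over all 19 fibroblast genes and -0.32 over all 11 contractile genes. The fibroblast median lay 0.0067 above the contractile median, and this gap ran from -0.11 to 0.057 over 15 other ways of processing the data. Single genes spread far more within each group than the medians did between groups, with a range of -1.05 to 0.25 for fibroblast genes and of -0.90 to 0.44 for contractile genes. The EN-TAM67 readings both lay below both EN readings in 8 of the 17 fibroblast genes and 5 of the 8 contractile genes, where this held for 20.0% of all genes tested. The opposite order held for 0 fibroblast genes and for 1 contractile gene (Des), against 20.2% of all genes. With 2 tumours in each group an exact permutation test of a single gene cannot go below p = 0.333, so separation of the readings is not a test by itself.

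**Figure D1:**
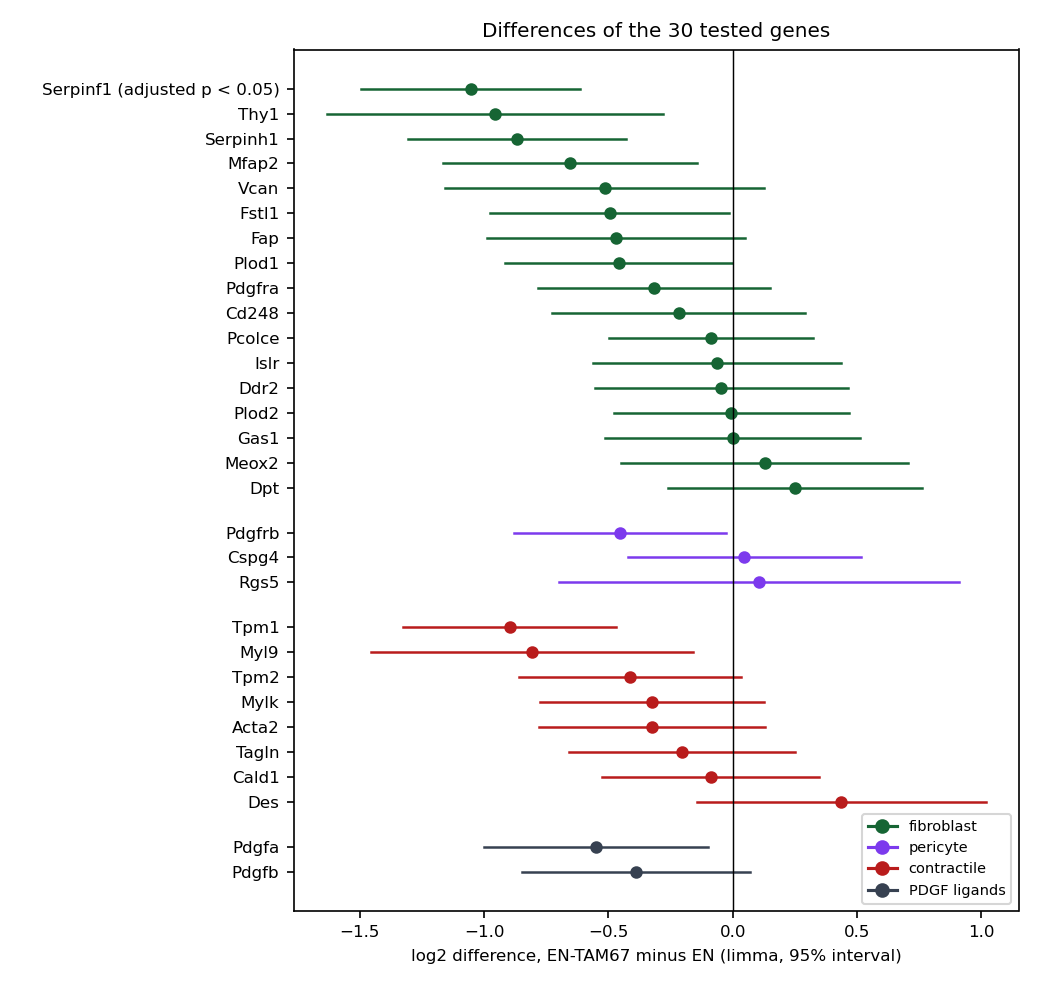
Log2 difference (EN-TAM67 minus EN) with its 95% interval from limma for the 30 tested genes, in the order fibroblast, pericyte, contractile and PDGF ligand genes and sorted within each. Fibroblast genes run from -1.05 (Serpinf1) to 0.25 (Dpt) and contractile genes from -0.90 (Tpm1) to 0.44 (Des), and the 2 groups cover nearly the same range.

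One tumour stood high in these genes. EN tumour 2 had the highest of the 4 readings in 22 of the 35 genes and the lowest in 1, whereas over the 13331 genes tested it was highest in 4000 and lowest in 3193. After the mean of each gene over the 4 tumours was subtracted, the median fibroblast gene stood at -0.20 and -0.18 in EN-TAM67 tumours 1 and 2, and at -0.026 and 0.35 in EN tumours 1 and 2. The contractile median was -0.15 and -0.23 in EN-TAM67 tumours 1 and 2 and 0.036 and 0.27 in EN tumours 1 and 2. Both groups were thus lower in either EN-TAM67 tumour than in either EN tumour, and the EN tumours differed from each other more than the EN-TAM67 tumours did. Without EN tumour 2 the fibroblast median difference was -0.28 and the contractile one -0.22, and without EN tumour 1 they were -0.51 and -0.40.

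**Figure D2:**
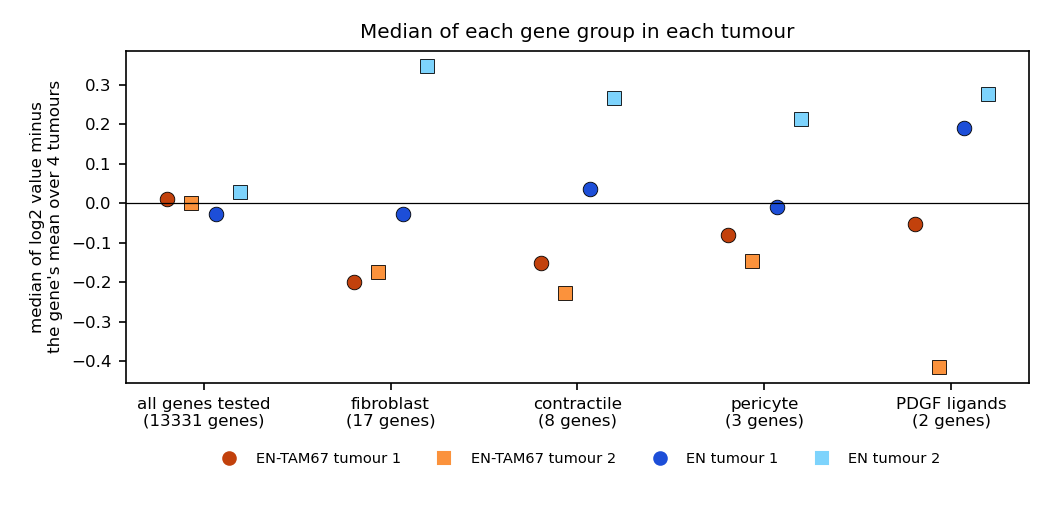
Median over genes of the log2 value minus the gene's own mean over the 4 tumours, for each tumour, in all genes tested and in the fibroblast, contractile, pericyte and PDGF ligand genes. In the fibroblast genes the EN-TAM67 tumours lie at -0.20 and -0.18, EN tumour 1 at -0.026 and EN tumour 2 at 0.35, while over all genes the 4 tumours lie within 0.03 of 0.

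Other measures moved with the groups. For the Gapdh control probe sets, 3' signal divided by 5' signal was 1.17 and 1.11 in EN-TAM67 tumours against 0.938 and 1.04 in EN tumours. The same ratio for beta-actin was 1.31 and 1.34 in EN-TAM67 tumours against 1.11 and 1.195 in EN tumours. The 18S control signal was 6.76 and 7.43 in EN-TAM67 tumours against 5.43 and 6.40 in EN tumours on the log2 scale. The adipocyte marker list was higher in EN-TAM67 tumours: 6 of its 8 genes were on the array, 5 were tested and 4 rose (Adipoq, Fabp4, Retn and Car3), with a summed intensity of 1398 and 6017 units against 545 and 345 units in EN tumours. Of 6 macrophage markers, all of them tested, 0 passed and 6 were negative, with summed intensities of 8633 and 7026 units in EN-TAM67 tumours and 13981 and 11421 units in EN tumours. Epithelial markers (5 of 6 tested, 0 passed, 3 negative and 2 positive) summed to 2677 and 2595 units in EN-TAM67 tumours and 3223 and 3509 units in EN tumours. Most of that sum was Krt8, at 1596 and 1470 units in EN-TAM67 tumours and 2048 and 2017 units in EN tumours, while Cdh1 was at 0.15 and Krt7 at 0.32. No marker on these lists read exactly 0 on any array. The part of these differences in the values of the 35 genes was not tested.

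The PDGF ligand genes were both lower in EN-TAM67 tumours without passing the test. Pdgfa, whose product acts on PDGF receptor alpha, read 677 and 503 units in EN-TAM67 tumours, against 834 and 889 units in EN tumours. Both EN-TAM67 readings lay below both EN readings, and the difference was -0.55 ± 0.21 (SE, limma adjusted p = 0.397). A second Pdgfa probe set read 222 and 139 units in EN-TAM67 tumours against 273 and 253 units in EN tumours, in the same order. Pdgfb, whose product acts on both receptors, read 84.3 and 64.8 units in EN-TAM67 tumours against 98.5 and 105 units in EN tumours (-0.39 ± 0.22, limma adjusted p = 0.59). The Pdgfb difference was -0.23 without EN-TAM67 tumour 2, and a second, dimmer Pdgfb probe set overlapped, at 18.9 and 40.9 units in EN-TAM67 tumours and 45.5 and 16.6 units in EN tumours. Of the other ligands and antagonists on a list of 4, 3 were tested and 0 passed, with 2 negative and 1 positive. Sparc, a matricellular protein that binds PDGF-B, came nearest at -0.84 (limma adjusted p = 0.0527), followed by Pdgfrl at -0.55. The ligand Pdgfc lay the other way at 0.12. It overlapped, at 594 and 498 units in EN-TAM67 tumours and 462 and 541 units in EN tumours. Pdgfd, another ligand, was dim and not tested.

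At their brightest probe sets the receptor genes also lay at negative values. Pdgfrb, the receptor of pericytes and fibroblasts, read 569 and 638 units in EN-TAM67 tumours against 838 and 823 units in EN tumours. The EN-TAM67 tumours were both lower, and the difference was -0.45 ± 0.20 (SE, limma adjusted p = 0.477). Its second probe set gave 188 and 217 units in EN-TAM67 tumours against 382 and 358 units in EN tumours, a difference of -0.82 (limma adjusted p = 0.157 with every probe set tested). Pdgfra, the receptor that marks resident fibroblasts, read 163 and 159 units in EN-TAM67 tumours against 177 and 237 units in EN tumours, so that EN tumour 1 was close to the EN-TAM67 pair. Its difference was -0.32, with a 95% interval of -0.78 to 0.15, and it was -0.12 with EN tumour 2 left out, -0.51 with EN tumour 1 left out and -0.15 with its probe sets averaged. Ddr2, a receptor tyrosine kinase activated by fibrillar collagen, read 543 and 430.4 units in EN-TAM67 tumours, inside the EN readings of 396 and 629.9 units (-0.046). Its second probe set overlapped and lay at 0.20, and the average of its probe sets was at 0.077.

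Surface markers of activated fibroblasts were unequal. Thy1, a glycoprotein anchored in the membrane of fibroblasts and lymphocytes, read 164 and 253 units in EN-TAM67 tumours against 259 and 647 units in EN tumours. The difference of -0.96 ± 0.32 (SE, limma adjusted p = 0.294) rested on EN tumour 2: it was -0.32 without that tumour and -1.59 (limma adjusted p = 3.1e-04) when EN tumour 1 was left out instead. Leaving out the first EN-TAM67 tumour gave -0.67 and leaving out the second gave -1.25, with adjusted p-values of 3.1e-04 to 0.805 over 15 alternatives. Fap, a serine protease of activated fibroblasts, read 43.7 and 52.7 units in EN-TAM67 tumours against 62.7 and 83.9 units in EN tumours. Cd248 (endosialin) overlapped, at 49.4 and 65.5 units in EN-TAM67 tumours and 61.6 and 76.7 units in EN tumours. Gas1, a membrane-anchored protein linked to growth arrest and hedgehog signalling, overlapped at 161 and 134 units in EN-TAM67 tumours and 113 and 189.7 units in EN tumours. Its interval of -0.51 to 0.51 leaves room for a change in either direction, and a second Gas1 probe set stood at -0.72 (limma adjusted p = 0.416 with every probe set tested). Pi16, a marker of adventitial fibroblasts, lay below the array median on every array, at 15.5 and 24.6 units in EN-TAM67 tumours and 23.9 and 30.3 units in EN tumours, and was not tested.

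**Figure D3:**
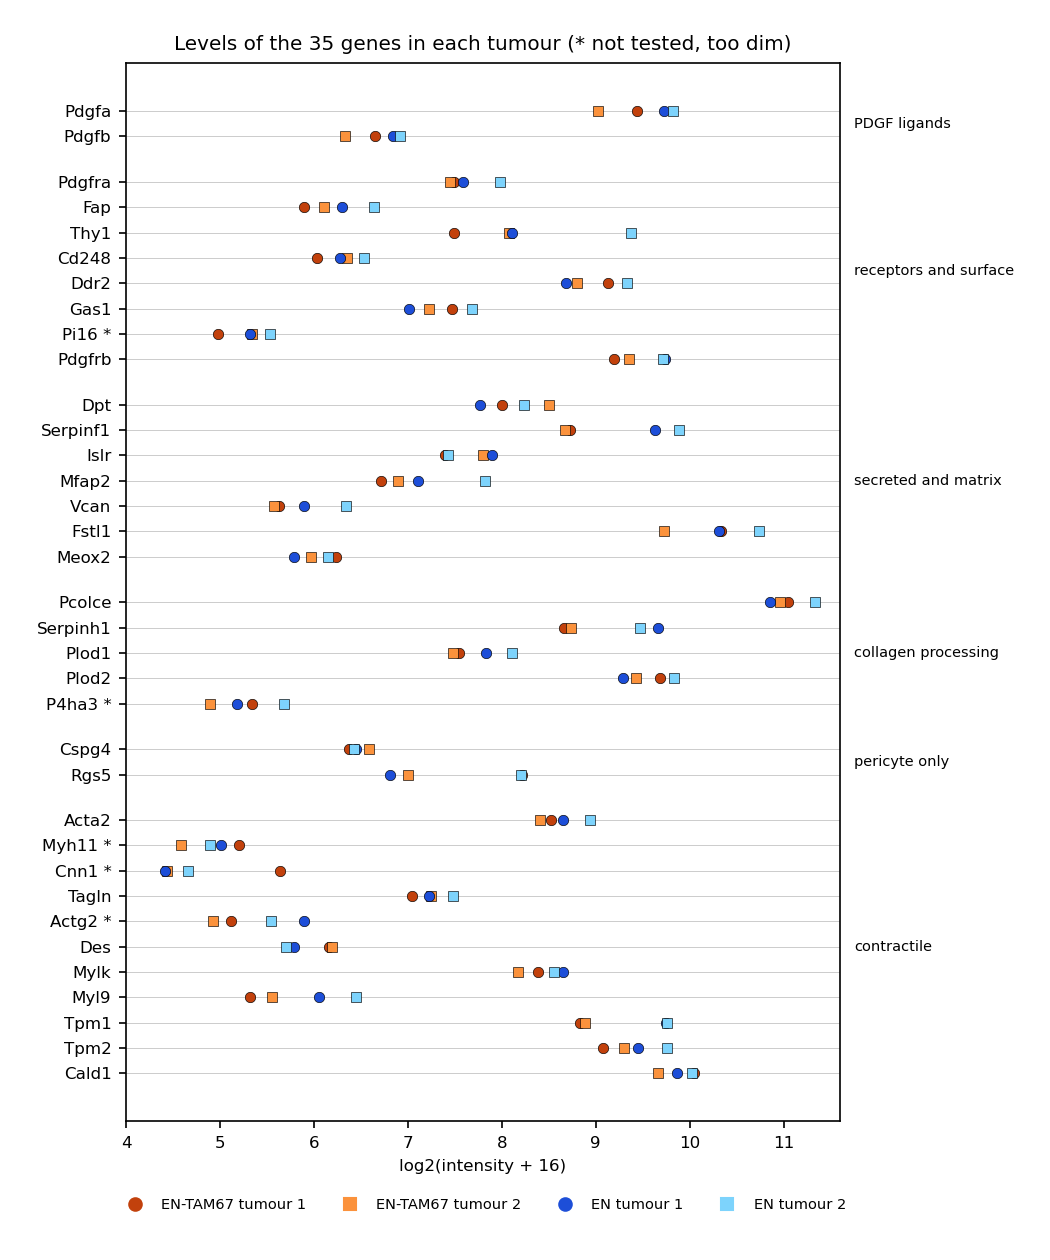
Level of each of the 35 genes on the scale log2(intensity + 16), with 1 point for each tumour (EN-TAM67 in orange, EN in blue) and genes grouped by role. In Serpinf1, Serpinh1 and Tpm1 the orange and blue points form separate pairs, in Thy1 EN tumour 2 lies apart from the other 3, and in Rgs5 the tumours pair across the groups.

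Among secreted and matrix genes, Serpinf1 was lower at both of its probe sets. The brighter one read 409 and 392 units in EN-TAM67 tumours, against 776 and 927 units in EN tumours. The other read 54.6 and 76.3 units in EN-TAM67 tumours, against 295 and 249.8 units in EN tumours. The groups were separate at both, and the dimmer probe set differed by -1.83 ± 0.23 (SE, limma adjusted p = 0.0027 with every probe set tested, where 0.231% of 22555 probe sets fell). The call of the gene was lost when EN-TAM67 tumour 1 was left out (-1.08, limma adjusted p = 0.214) or EN-TAM67 tumour 2 (-1.02, limma adjusted p = 0.29). Over 15 alternatives its difference stayed between -1.44 and -0.93, with adjusted p-values of 0.0049 to 0.309.

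Mfap2, a microfibril glycoprotein, read 89.3 and 103 units in EN-TAM67 tumours against 122 and 209.5 units in EN tumours. Its difference was -0.65 ± 0.24 (SE, limma adjusted p = 0.363), with EN tumour 2 left out -0.30 and with EN tumour 1 left out -1.01 (limma adjusted p = 0.0325), with adjusted p-values of 0.0325 to 0.821 over 15 alternatives. Vcan, the large proteoglycan versican, was dim, at 33.4 and 31.7 units in EN-TAM67 tumours and 43.4 and 65.0 units in EN tumours. Fstl1, a secreted glycoprotein of the follistatin family, overlapped, at 1275 and 833 units in EN-TAM67 tumours and 1258 and 1693 units in EN tumours. The remaining secreted and regulatory genes overlapped as well. Dpt (dermatopontin), which binds decorin and collagen, read 240.3 and 347 units in EN-TAM67 tumours against 202 and 287 units in EN tumours, the highest value among the fibroblast genes at 0.25 with an interval of -0.26 to 0.76. Islr (meflin) was at -0.06 and the homeobox gene Meox2 at 0.13, with intervals of -0.56 to 0.43 and -0.45 to 0.71.

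At their brightest probe sets, the tested collagen processing genes split into a lower pair and an overlapping pair. Serpinh1, which encodes the collagen chaperone Hsp47 of the endoplasmic reticulum, read 388 and 412 units in EN-TAM67 tumours against 793 and 696 units in EN tumours. The groups were apart by more than the spread within either, but the difference of -0.87 ± 0.21 (SE) had a limma adjusted p of 0.0859. A second Serpinh1 probe set read 292 and 346 units in EN-TAM67 tumours against 464 and 482 units in EN tumours. Plod1, a lysyl hydroxylase of collagen, read 170.2 and 163 units in EN-TAM67 tumours against 212 and 259.8 units in EN tumours (-0.46 ± 0.22, limma adjusted p = 0.507), and a dim second probe set differed the other way, by 0.44, so that their average was at -0.0088. Plod2, the lysyl hydroxylase of collagen telopeptides, read 808 and 673 units in EN-TAM67 tumours, inside the EN readings of 612 and 895 units. A second Plod2 probe set did not overlap, at 247 and 257 units in EN-TAM67 tumours against 294 and 314 units in EN tumours (-0.25). The average of the Plod2 probe sets was at -0.13. Pcolce, which enhances removal of the procollagen C-propeptide, read 2106 and 1976 units in EN-TAM67 tumours, inside the EN readings of 1836 and 2559 units. P4ha3, a prolyl hydroxylase subunit, was dim at 24.4 and 13.7 units in EN-TAM67 tumours and 20.2 and 35.2 units in EN tumours, and was not tested.

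Of 16 further collagen processing genes 13 were on the array and 12 were tested, and 1 fell and 0 rose. The one that fell was Pcolce2, a relative of Pcolce, at 93.6 and 62.3 units in EN-TAM67 tumours against 148 and 249.3 units in EN tumours (-1.17 ± 0.25, limma adjusted p = 0.0481). Loxl1, a lysyl oxidase active on elastin, was next at -1.05 (limma adjusted p = 0.0653), and the median of the list was -0.28. Of 20 further fibroblast genes 17 were tested and 0 passed (limma, with 3 lower and 1 higher at an unadjusted p under 0.05), with a median of -0.20. The largest differences on that list were -0.91 for Cthrc1, a secreted protein with a collagen triple helix, and 0.73 for Clec3b (tetranectin).

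The promoters of Serpinf1, Serpinh1 and Tpm1 are shown because these genes had the strongest evidence of a difference among the 35. RefSeq windows of GRCm38.p6 from 250 bases before to 50 bases after the start were held for 26 of the 35 genes, as 29 windows. They were searched on both strands for the AP-1 site TGAGTCA and for the CArG box. The CArG box was taken as CCWWWWWWGG, where W is A or T, and neither search allowed a mismatch. A match would be printed in capitals. None of the 3 windows held either motif, which says only that these letters are not in these windows. They lie at chr11:75422574-75422873 for Serpinf1, chr7:99353190-99353489 for Serpinh1 and chr9:67049164-67049463 for Tpm1, all on the minus strand, and are written 5′ to 3′ along the gene.
Serpinf1: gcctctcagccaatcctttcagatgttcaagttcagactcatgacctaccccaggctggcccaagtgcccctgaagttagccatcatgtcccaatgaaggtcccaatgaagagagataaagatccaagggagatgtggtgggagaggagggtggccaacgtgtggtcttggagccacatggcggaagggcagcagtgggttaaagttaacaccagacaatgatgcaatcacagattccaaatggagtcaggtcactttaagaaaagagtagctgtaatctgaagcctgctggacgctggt
Serpinh1: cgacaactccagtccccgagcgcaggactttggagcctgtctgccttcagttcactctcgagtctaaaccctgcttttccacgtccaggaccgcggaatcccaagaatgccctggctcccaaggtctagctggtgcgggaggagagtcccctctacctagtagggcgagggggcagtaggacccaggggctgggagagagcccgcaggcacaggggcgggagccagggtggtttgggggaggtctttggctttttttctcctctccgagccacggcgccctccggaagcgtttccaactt
Tpm1: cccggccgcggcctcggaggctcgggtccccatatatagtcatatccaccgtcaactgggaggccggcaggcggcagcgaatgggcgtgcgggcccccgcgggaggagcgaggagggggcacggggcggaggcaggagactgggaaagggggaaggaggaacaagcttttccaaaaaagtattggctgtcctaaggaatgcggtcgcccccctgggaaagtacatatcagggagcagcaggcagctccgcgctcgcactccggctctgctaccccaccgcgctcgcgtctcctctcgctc

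Among the tested contractile genes, tropomyosin and myosin light chain genes held the lowest values. Tpm1 read 440.2 and 456 units in EN-TAM67 tumours, against 846 and 851 units in EN tumours. The readings agreed closely within each group, and the difference was -0.90 ± 0.20 (SE, limma adjusted p = 0.0617, or 0.0361 to 0.395 over 15 alternatives). A second Tpm1 probe set, at 168 and 151 units in EN-TAM67 tumours and 362 and 357 units in EN tumours, fell by 1.10 (limma adjusted p = 0.0458 with every probe set tested), and a dimmer one stood at -0.33. Tpm2, another tropomyosin, read 526 and 613 units in EN-TAM67 tumours against 684 and 849 units in EN tumours (-0.41 ± 0.21, limma adjusted p = 0.556), but 1 of its 4 probe sets lay at 0.17. Myl9, a regulatory light chain of smooth muscle and non-muscle myosin, read 24.1 and 31.1 units in EN-TAM67 tumours against 50.3 and 71.2 units in EN tumours. Its difference of -0.81 ± 0.31 (SE, limma adjusted p = 0.384) involved readings below the array medians in both EN-TAM67 tumours, and it was -1.10 with a pseudocount of 1 and -0.44 with a pseudocount of 64.

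Acta2 and Mylk were lower by less. Acta2, the smooth muscle alpha-actin that also marks myofibroblasts and myoepithelial cells, read 353 and 324 units in EN-TAM67 tumours against 385 and 474 units in EN tumours (-0.32, interval -0.78 to 0.13). Mylk, the myosin light chain kinase, read 319 and 271 units in EN-TAM67 tumours against 386 and 359.8 units in EN tumours (-0.32, interval -0.78 to 0.13). At the brightest probe set of both genes the groups did not overlap, and neither passed. Their other kept probe sets were dimmer and overlapped, at 0.12 for Acta2 and at -0.10 and -0.54 for Mylk. Acta2 was at -0.18 with EN tumour 2 left out and at -0.10 with its probe sets averaged, and Mylk at -0.21 with EN-TAM67 tumour 2 left out. Tagln (transgelin), an actin-binding protein, overlapped at 116 and 135 units in EN-TAM67 tumours and 133 and 162 units in EN tumours. Cald1 (caldesmon), which regulates actomyosin, overlapped at its brightest probe set, at 1043 and 797 units in EN-TAM67 tumours and 919 and 1026 units in EN tumours. At its other kept probe sets both EN-TAM67 readings lay below both EN readings, with differences of -0.22, -0.26 and -0.70. With its probe sets averaged Cald1 was at -0.32.

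The genes most restricted to differentiated smooth muscle were dim, with all but 1 reading below the median of its array. Myh11, the smooth muscle myosin heavy chain, read 20.9 and 7.97 units in EN-TAM67 tumours and 16.2 and 13.6 units in EN tumours. Cnn1 (calponin 1) read 34.0 and 5.58 units in EN-TAM67 tumours and 5.29 and 9.22 units in EN tumours. Neither exceeded the median of any array, which was 35.6 to 40.8 units, and neither was tested. Actg2, the enteric smooth muscle gamma-actin, read 18.6 and 14.4 units in EN-TAM67 tumours against 43.3 and 30.7 units in EN tumours, above the array median only in EN tumour 1. Its difference was -0.70, and it was left out of the test by the filter on dim probe sets.

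Des was the only tested contractile gene with a positive difference. This intermediate filament gene of smooth and skeletal muscle and of pericytes read 55.7 and 57.1 units in EN-TAM67 tumours against 39.2 and 35.9 units in EN tumours (0.44 ± 0.27, limma adjusted p = 0.649). Its second probe set overlapped, at 55.8 and 25.7 units in EN-TAM67 tumours and 39.9 and 38.4 units in EN tumours. Of 9 skeletal muscle markers 4 were tested and 1 rose, Myh1, at 142 and 163 units in EN-TAM67 tumours against 39.0 and 59.6 units in EN tumours. Of the other tested markers Tnni2 was at 0.26, Acta1 at 0.19 and Ckm at -0.0044, the last 2 with overlapping groups. The list, Myh1 included, summed to 407 and 491 units in EN-TAM67 tumours against 273 and 297 units in EN tumours, with no marker at 0. The part of skeletal muscle RNA in the Des reading was not tested. Of 6 myoepithelial markers 5 were tested and 0 passed, with 4 negative and 1 positive. The positive one was Krt14 at 0.67, which rested on EN-TAM67 tumour 2. It overlapped, at 157 and 425 units in EN-TAM67 tumours and 167 and 149 units in EN tumours. Krt5 was lowest at -0.63, with separate groups. The list, with that Krt14 reading, summed to 695 and 941 units in EN-TAM67 tumours and 805 and 853 units in EN tumours.

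Beyond these 11, a list of 31 smooth muscle and cytoskeletal genes had 24 tested, of which 1 fell and 0 rose. The gene that fell was Csrp1, a LIM protein of smooth muscle that binds alpha-actinin, at 215 and 281 units in EN-TAM67 tumours against 653 and 473 units in EN tumours (-1.13 ± 0.23, limma adjusted p = 0.0384). The median of the list was -0.18. Other tropomyosins lay on the same side, with Tpm3 at -0.50 and Tpm4 at -0.39. The transcription factor Srf was at -0.20 and its cofactors Mrtfa and Mrtfb at 0.0085 and 0.097, all with overlapping groups.

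Only 3 of the 29 promoter windows held an exact match to a searched motif, all of them in contractile genes, and they are shown for that reason. The contractile genes Tagln, Myh11 and Actg2 had no window to search. TGAGTCA was found in 5.20% of all 32851 windows and in 2 of the 29 windows here, those of Mylk and Cald1. The CArG box was found in 1.63% of all windows and in 1 of the 29 windows here, that of Myl9. The windows are chr2:156775214-156775513 for Myl9, chr16:34784700-34784999 for Mylk and chr6:34709194-34709493 for one of the starts of Cald1, all on the plus strand, with the match in capitals. The match begins 161 bases before the start in Myl9, 64 in Mylk and 197 in Cald1.
Myl9: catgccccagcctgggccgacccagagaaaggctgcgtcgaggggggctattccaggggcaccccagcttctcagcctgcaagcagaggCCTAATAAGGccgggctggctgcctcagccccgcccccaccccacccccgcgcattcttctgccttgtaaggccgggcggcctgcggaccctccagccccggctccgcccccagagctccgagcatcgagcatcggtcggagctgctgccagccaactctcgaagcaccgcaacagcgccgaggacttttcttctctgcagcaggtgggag
Mylk: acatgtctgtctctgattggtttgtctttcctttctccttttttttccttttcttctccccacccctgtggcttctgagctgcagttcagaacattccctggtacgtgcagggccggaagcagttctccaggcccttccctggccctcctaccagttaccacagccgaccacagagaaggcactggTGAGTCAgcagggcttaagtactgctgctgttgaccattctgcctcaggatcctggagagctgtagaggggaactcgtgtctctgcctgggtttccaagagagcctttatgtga
Cald1: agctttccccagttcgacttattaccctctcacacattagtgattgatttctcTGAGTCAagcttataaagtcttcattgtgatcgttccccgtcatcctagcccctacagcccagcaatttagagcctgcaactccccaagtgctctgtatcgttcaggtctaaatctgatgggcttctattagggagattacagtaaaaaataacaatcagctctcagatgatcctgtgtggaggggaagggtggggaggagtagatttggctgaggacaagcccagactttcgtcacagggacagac
These genes differed by -0.81 (Myl9), -0.32 (Mylk) and -0.09 (Cald1), and none of them passed.

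The 2 genes used here for pericytes beside Pdgfrb, Rgs5 and Cspg4, were slightly positive with overlapping groups, and neither passed. Rgs5, a regulator of G protein signalling in pericytes, read 281 and 113 units in EN-TAM67 tumours and 96.0 and 279 units in EN tumours. The spread within each group exceeded the distance between the groups, and the difference changed sign with the tumours used: leaving out EN tumour 1 gave -0.59, EN tumour 2 gave 0.80, EN-TAM67 tumour 1 gave -0.50 and EN-TAM67 tumour 2 gave 0.71. A second Rgs5 probe set overlapped too, at 176 and 158 units in EN-TAM67 tumours and 116 and 230.2 units in EN tumours. Cspg4, the proteoglycan NG2, read 67.2 and 80.2 units in EN-TAM67 tumours and 71.5 and 69.8 units in EN tumours (0.047, or -0.052 with each array centred on its median). With Pdgfrb the pericyte median was 0.047, or -0.052 with that centring. Leaving out EN tumour 1 gave -0.44, EN tumour 2 gave 0.033, EN-TAM67 tumour 1 gave -0.37 and EN-TAM67 tumour 2 gave -0.058. Of 11 further pericyte genes 8 were tested and 0 passed (limma, with 3 lower and 0 higher at an unadjusted p under 0.05). The median of that list was -0.18, with 7 negative and 1 positive. The largest differences were -0.88 for Angpt1, the Tie2 ligand of pericytes, and -0.82 for the aminopeptidase Anpep. Both EN-TAM67 readings of Anpep lay below the array medians. The positive gene was Abcc9 at 0.40, with separate groups. It read 76.8 and 78.5 units in EN-TAM67 tumours against 53.9 and 56.1 units in EN tumours. Endothelial markers (4 of 7 tested, 0 passed, 4 negative) summed to 381 and 424 units in EN-TAM67 tumours against 497 and 671 units in EN tumours.

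Different probe sets of a gene did not always give the same direction. Of the 35 genes 25 had more than 1 probe set, and in 21 of these more than 1 was bright enough to be kept. In 13 of the 21 all kept probe sets had one sign, and in 8 the signs differed (Acta2, Ddr2, Des, Gas1, Pdgfra, Plod1, Rgs5 and Tpm2). The kept probe sets of Serpinf1, Serpinh1, Tpm1 and Pdgfrb separated the groups in the same direction throughout.

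**Figure D4:**
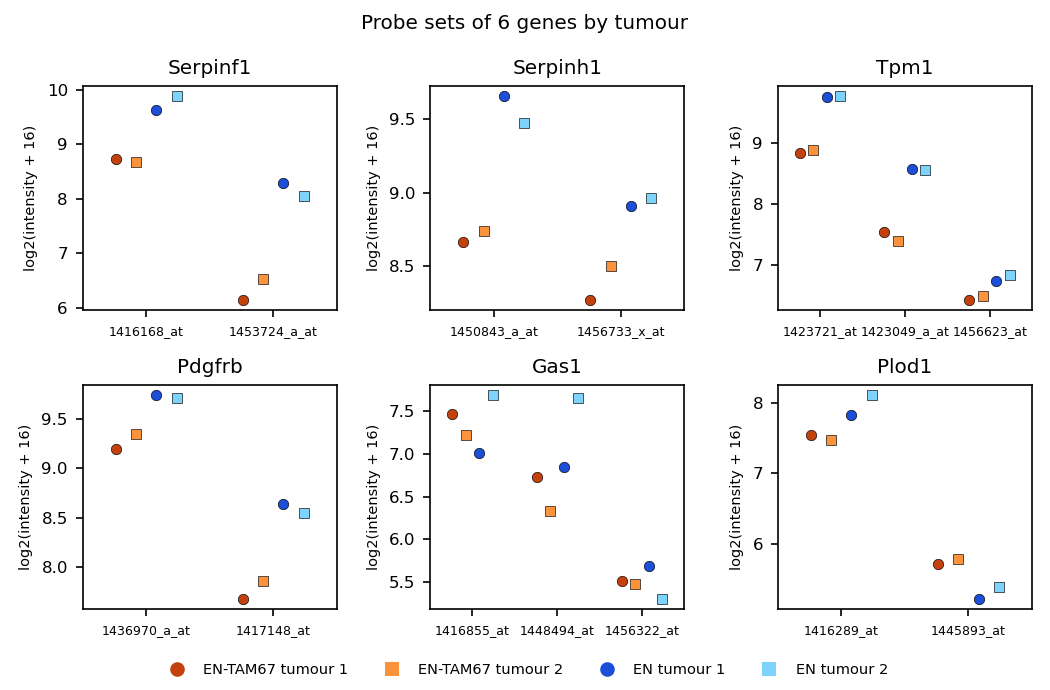
Every kept probe set of 6 genes on the scale log2(intensity + 16), with 1 point for each tumour (EN-TAM67 in orange, EN in blue) and its own axis for each gene. In Serpinf1, Serpinh1, Tpm1 and Pdgfrb both EN-TAM67 points lie below both EN points at every probe set, whereas in Gas1 the groups overlap at 2 of the 3 probe sets and in Plod1 the 2 probe sets differ in direction.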

How the data were processed

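RNA was extracted with Trizol, cleaned on columns, and labelled as biotin cRNA for hybridisation, per the labels. Each array came with 45101 deposited intensity values on a linear scale, 1 for a probe set. The summarisation, background and scaling steps behind them are not given in the sources used. Array medians were 38.1 and 40.8 for EN-TAM67 and 35.6 and 35.9 for EN. The number of arrays limits the precision, and no detection call or batch was used.

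Of 45037 probe sets other than 64 controls, 34945 had 1 gene symbol, 932 several and 9160 none in the platform annotation. Checking Entrez IDs against RefSeq (GRCm38.p6) changed 0 symbols. The dimmest 40% of probe sets by mean log2(intensity + 16) were left out, and the brightest probe set of each gene was tested, which gave 13331 genes. The test was limma 3.58.1 under R 4.3.3: lmFit, then eBayes with the variance prior following intensity, two-sided, with no term for the tumour number. A gene was called at a p under 0.05 after Benjamini-Hochberg adjustment over all genes. Every gene of the list is named, and from further lists those past the threshold or else the 2 with the largest difference; a few others were picked with their values in view. The members and lists were chosen with earlier results of these data known. Gene lists are described by counts and medians and were not tested. Alternatives were other filters, scalings, pseudocounts (1 and 64), probe set rules and variance models, the replicate block, and each array left out in turn; testing every probe set and choosing probe sets by linear means were added after seeing the data. Nothing in the labels ties equal tumour numbers together, so they were not treated as pairs. In the data they did not deviate together either (correlation -0.065).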

Additional observations from a re-analysis of the deposited data

How the results depend on the processing

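With 2 tumours in each group the test has little precision, and the filter on dim probe sets left 5 of the 35 genes out of it. The count of the 35 genes that fell (1) was 3 with no filter on dim probe sets, 3 at an adjusted p under 0.10, 0 without the intensity trend, 0 with the replicate block, and 0 to 4 with single tumours left out (4 without EN tumour 1, 3 without EN tumour 2, 0 without either EN-TAM67 tumour), and 0 rose in any of these fits. Equal tumour numbers share only a number. Serpinf1 lost its call in 4 of 15 fits: without the intensity trend (adjusted p = 0.309), with the replicate block (0.211) and without either EN-TAM67 tumour. Over all genes, 18 higher and 56 lower became 7 and 28 with probe sets averaged per gene, 9 and 29 with quantile normalization, 1 and 4 without the trend and 3 and 8 with the replicate block; 7 were higher with median centring and 29 at an adjusted p under 0.10. With single tumours left out, 9 to 90 were higher and 9 to 105 lower. The fibroblast median (-0.32) ran from -0.51 to -0.28, the contractile one from -0.40 to -0.22, the gap between them from -0.11 to 0.010, and the pericyte median (0.047) from -0.44 to 0.033 with single tumours left out.

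Signs turned only in genes that did not pass. With probe sets averaged per gene, Ddr2 was at 0.077, with median centring Cspg4 at -0.052, with a pseudocount of 1 Gas1 at 0.0035, and with quantile normalization Pcolce at 0.045 and Plod2 at 0.014. With single tumours left out, 10 genes spanned 0: Ddr2 (-0.37 to 0.28), Gas1 (-0.34 to 0.34), Dpt (-0.0021 to 0.50), Islr (-0.30 to 0.17), Meox2 (-0.053 to 0.31), Pcolce (-0.32 to 0.15), Plod2 (-0.27 to 0.26), Cspg4 (-0.058 to 0.15), Rgs5 (-0.59 to 0.80) and Cald1 (-0.28 to 0.10). The causes were not tested. Fits that leave out a tumour take the spread of its single remaining partner from the other group. Of 447 gene results under the alternatives, 415 kept direction and side of the threshold, 4 lost the call, 7 gained one (Tpm1 in 3, Serpinh1 in 2, Thy1 and Mfap2 in 1 each) and 21 changed sign.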
